A study of Homo sapiens with 8 samples.

Results

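Receptor tyrosine kinases are cell-surface receptors that bind a growth factor or a contact ligand outside the cell, pair up and phosphorylate one another inside it. The phosphorylated tails recruit adaptor proteins, which pass the signal to the RAS, PI3K and phospholipase C pathways. In skeletal muscle and its tumours, the FGF, IGF, MET, ERBB and PDGF receptors are known for their part in growth of precursors, and MUSK builds the nerve-muscle synapse. A list of 56 receptor symbols was matched by symbol to the count table. Of the 56, 40 were in the table of 22808 genes and 24 had enough reads for a test.

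RD18, a human cell line labelled as fusion-negative rhabdomyosarcoma (a tumour with skeletal muscle features), was studied in 8 libraries. Treated cells were transfected with miR-449a and miR-340-5p together, and vehicle cells with the transfection reagent lipofectamine alone, both for 60 h, with 4 libraries in each group. The vehicle cells received no RNA according to the labels, so the comparison joins the effect of the microRNA pair to that of transfected RNA. Separate cultures are not stated for the libraries of a group. The p-values therefore describe the spread among these 8 libraries, which may be technical.

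Total counts ran from 2842165 to 5569342 in treated libraries and from 2567737 to 4650213 in vehicle libraries. Receptors took 0.120% to 0.132% of counts in treated libraries and 0.0904% to 0.101% in vehicle libraries. The muscle markers were present: 8 of 10 listed could be tested, with CHRNA1, the acetylcholine receptor alpha subunit of muscle, at 624 CPM (counts scaled to sequencing depth) in treated and 814 CPM in vehicle cells. Of those 8, 7 fell. MYOG fell 13.8-fold (0.646 and 10.4 CPM, under the count minimum of the test in every treated library), MYLPF 6.17-fold and MYH3 3.63-fold. MYOD1 (108 and 204 CPM) fell 1.88-fold, DES (67.7 and 108 CPM) 1.58-fold, CDH15 1.39-fold and CHRNA1 1.31-fold. TNNT1 rose 1.37-fold. The part of this shift in the results below was not tested. Endothelial markers summed to between 0.710 and 3.86 CPM in treated and between 0 and 1 CPM in vehicle libraries, and leukocyte markers to between 2.07 and 3.24 CPM in treated and between 1.26 and 3.01 CPM in vehicle libraries. Neither list had a testable gene. Epithelial markers summed to between 71.9 and 83.3 CPM in treated libraries and between 38.6 and 49.7 CPM in vehicle libraries. All 3 tested members of 7 listed rose (KRT8, KRT18 and CLDN4), while EPCAM averaged 1.38 and 0.105 CPM and CDH1 0.174 and 0 CPM. KRT8 reached the count minimum in 2 vehicle libraries and CLDN4 in 0, so both entered the test through the treated libraries. Fibroblast markers summed to between 200 and 225 CPM in treated and between 147 and 156 CPM in vehicle libraries, with 1 of 4 tested members higher and 1 lower. The lower one, LUM, reached the count minimum in 0 treated libraries and entered the test through the vehicle libraries. Neuronal and glial markers summed to between 119 and 142 CPM in treated and between 353 and 397 CPM in vehicle libraries, with 1 of 2 tested members higher and 1 lower. Most of that sum was the lower one, MAP2 (111 and 361 CPM), while SNAP25 (13.4 and 7.26 CPM) rose 1.81-fold. The part of these markers in the results below was not tested. In RNA of whole cultures, fewer cells of a type and less RNA per cell cannot be told apart.

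The transfected microRNAs are shown first because their seeds (bases 2 to 8, in capitals) set which words in a messenger RNA they can pair with. Sequences are those of RefSeq, GRCh38.p14, written 5′ to 3′.
miR-449a: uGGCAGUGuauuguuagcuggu
miR-340-5p: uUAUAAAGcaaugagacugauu
The seed of miR-449a is shared by miR-34a-5p and miR-449b-5p in that table, and no other mature microRNA there has the seed of miR-340-5p. In DNA letters the word that pairs with the first seed is CACTGCC and that for the second is CTTTATA. Both were sought on the transcript strand of the longest annotated 3′ UTR in GENCODE 29. Among the 24 tested receptors, 5 held the first word, 5 the second and none both.

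The sites of tested receptors that changed are shown with 15 bases before and 3 after, and the matching word in capitals.
MET, proximal: gtccaatggttttttCACTGCCtga
MET, distal: gaattagatacttgtCACTGCCtat
AXL: aggatccaagctaagCACTGCCact
INSR: tcttgtacttttaggCACTGCCctt
DDR2: tttgtaacctttgctCTTTATAgtc
PTK7, proximal: tacacatgataaaccCTTTATAtca
PTK7, distal: tttgtttacttatttCTTTATAcca
EGFR: acattcaagcaatagCTTTATAgct
MERTK: ccattcttggcattgCTTTATAgag
On GRCh38, the build of all positions given here, with gene positions from GENCODE 29, the MET words lie at chr7:116796175-116796181 and chr7:116798289-116798295 on the plus strand. The AXL word is at chr19:41259948-41259954 on the plus strand and the INSR word at chr19:7113900-7113906 on the minus strand. The DDR2 word lies at chr1:162786628-162786634, those of PTK7 at chr6:43133283-43133289 and chr6:43133638-43133644, that of EGFR at chr7:55211409-55211415 and that of MERTK at chr2:112029490-112029496, all on the plus strand. FGFR1, which also changed, holds 1 word of miR-449a. The remaining tested receptors with a word were FLT1 (miR-449a) and EPHA7 (miR-340-5p). Of these sites, only that of AXL is followed by an A, which gives the 8-base form of the match. The longest 3′ UTR need not belong to the main transcript. The INSR word, both PTK7 words, the FLT1 word and the distal MET word lie outside the 3′ UTR of the transcript with the longest coding sequence. Those of PTK7 lie 28430 and 28075 bases before the annotated end of the gene and that of FLT1 lies 89132 bases before it, in shorter transcripts, while the fold changes are for all reads of a gene symbol. The FGFR1 word lies 13125 bases before the annotated end of its gene, though inside the 3′ UTR of the transcript with the longest coding sequence. A match is a description of the sequence, not evidence of binding.

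The comparison asks how receptor RNA differed between cells transfected with the microRNA pair and cells given the reagent alone. The treated cells had more RNA of the collagen receptor DDR2, the TAM receptors AXL and MERTK, the insulin receptor, EGFR, PTK7, EPHA2, EPHB4 and LTK. They had less RNA of FGFR4, FGFR1, ERBB3, MET, DDR1, MUSK and RYK. Thus 9 of 24 tested receptors rose, 7 fell and 8 did not pass (edgeR quasi-likelihood test, Benjamini-Hochberg adjusted p under 0.05 over all tested genes). Called genes made up 66.7% of the tested receptors and 67.3% of all 12366 tested genes, so the share of receptors called was close to that of all genes. Rises were called for 33.4% and falls for 34% of all genes. The median log2 fold change of the tested receptors was -0.07, and that of all tested genes was 0.00 to 2 decimals (-0.000671).

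Changes of at least 2-fold were found for 10 of the 24 receptors (6 higher, 4 lower), or 41.7%, where 25.6% of all tested genes had one. In 14 receptors (58.3%) no treated library overlapped a vehicle library in CPM, where 58.9% of all tested genes had such a separation. Among the risers, LTK and MERTK reached the count minimum in all 4 treated libraries but in only 2 vehicle libraries each. They entered the test because they were high in treated cells, so the counts above do not describe all members.

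**Figure D1:**
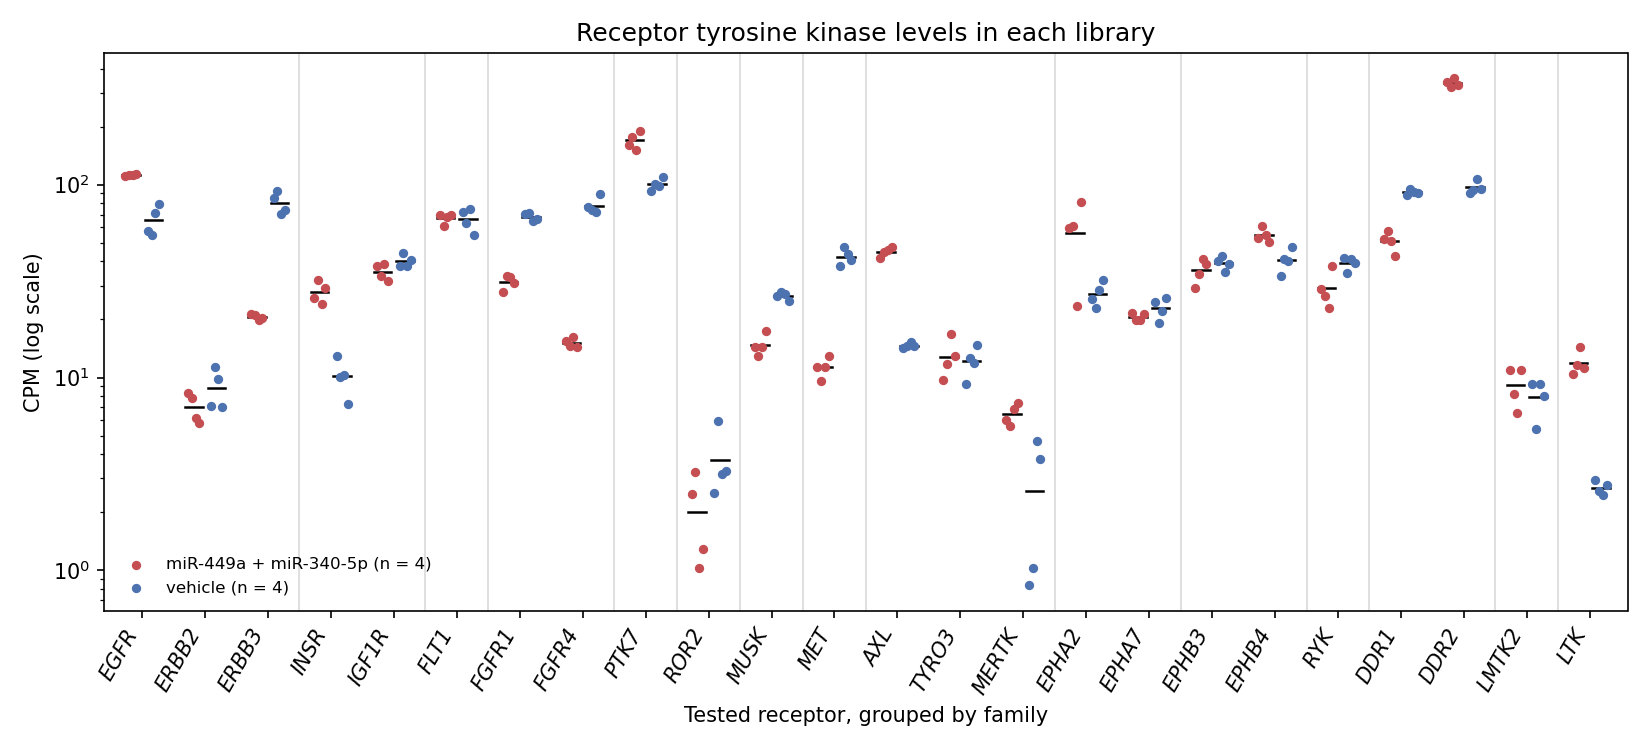
CPM on a log axis of the 24 tested receptors in each library, grouped by family, with treated libraries on the left of each pair and vehicle libraries on the right and bars at the mean of 4. DDR2 stands above all others in treated cells at 337 CPM, and the single low EPHA2 library of the treated group lies among the vehicle libraries.

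**Figure D2:**
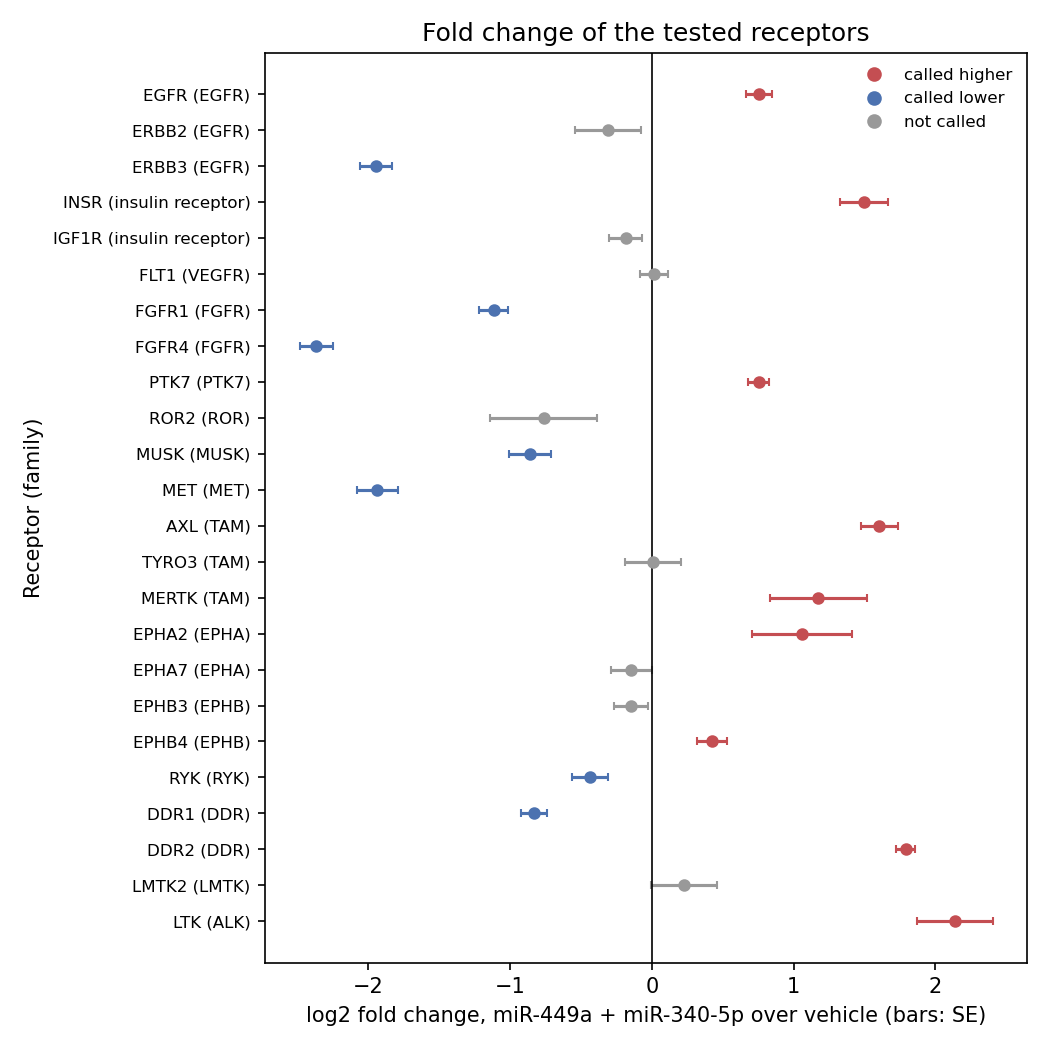
Log2 fold change of treated over vehicle cells for the 24 tested receptors with their SE, from the edgeR fit. Values run from -2.37 for FGFR4 to 2.14 for LTK, and the grey points, which did not pass, lie near 0 except ROR2 at -0.76.

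In the EGFR family, members moved in opposite directions. EGFR, the receptor of EGF-like ligands (chromosome 7, 55019021 to 55211628), measured 111, 112, 112 and 114 CPM in treated libraries, against 57.7, 55.15, 71.2 and 79.4 CPM in vehicle libraries. The treated libraries were tightly grouped and all above the vehicle libraries (log2 fold change 0.75, SE 0.09, adjusted p = 9.70e-11). ERBB3, the neuregulin receptor with a weak kinase domain (chromosome 12, 56076799 to 56103505), had 21.3, 21.0, 19.97 and 20.3 CPM in treated libraries, against 84.9, 92.4, 70.5 and 73.9 CPM in vehicle libraries. Its groups were far apart (-1.95, SE 0.11, adjusted p = 3.44e-23), a 3.86-fold fall. ERBB2, the partner receptor that binds no ligand itself, averaged 7.05 ± 1.24 CPM in treated and 8.85 ± 2.15 CPM in vehicle cells (SD, n = 4 each) and did not pass (adjusted p = 0.242). The exons of ERBB2 overlap those of MIEN1 and PGAP3 on the opposite strand, and those of EGFR overlap EGFR-AS1. ERBB3 shares 31 exonic bases with another gene on its own strand. The strand setting of the counting is not given in the sources used here.

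Of the 2 tested insulin-type receptors, INSR passed and IGF1R did not. INSR, the insulin receptor (chromosome 19, 7112255 to 7294034), had 25.9, 32.1, 24.1 and 29.3 CPM in treated libraries, against 12.97, 10.1, 10.3 and 7.28 CPM in vehicle libraries. No library overlapped, and the rise was 2.82-fold (log2 fold change 1.49, SE 0.17, adjusted p = 1.19e-11). IGF1R, the receptor of insulin-like growth factors, averaged 35.3 ± 3.39 CPM in treated and 40.1 ± 2.84 CPM in vehicle cells and did not pass (adjusted p = 0.146). Whether the change of INSR differs from that of IGF1R was not tested.

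Both tested FGF receptors were lower. FGFR4, a receptor known for high expression in rhabdomyosarcoma (chromosome 5, 177086886 to 177098144), had 15.4, 14.5, 16.2 and 14.5 CPM in treated libraries, against 76.6, 73.5, 72.3 and 89.4 CPM in vehicle libraries. Its fall of 5.16-fold was the largest among the tested receptors (log2 fold change -2.37, SE 0.12, adjusted p = 3.48e-26). FGFR1, a widely expressed FGF receptor (chromosome 8, 38400215 to 38468834), had 27.7, 33.6, 33.4 and 30.9 CPM in treated libraries, against 70.3, 71.2, 64.5 and 66.1 CPM in vehicle libraries, a 2.17-fold fall (adjusted p = 2.41e-14). The exons of FGFR1 overlap LETM2 on the opposite strand. FGFR2 had no count in any treated library, against 4, 2, 6 and 6 counts in vehicle libraries. It was 7.15-fold lower with the treated group set to a floor of 3 counts in all, which takes the vehicle counts as exact. The 95% counting interval of the FGFR2 ratio of treated over vehicle reached up to 0.191. FGFR3 had 13, 5, 0 and 11 counts in treated libraries, against 1, 1, 0 and 1 in vehicle libraries, a depth-scaled ratio of 8.11 (95% counting interval 2.51 to 41.6). FGFR3 has annotated pseudogenes with which reads could be shared. Intervals and floors cover counting error only. Summed over the family, FGF receptors measured 45.4 to 49.6 CPM in treated libraries and 138 to 157 CPM in vehicle libraries.

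MET, the receptor of hepatocyte growth factor (chromosome 7, 116672390 to 116798386), is the listed receptor with 2 words of miR-449a among those tested. It had 11.4, 9.55, 11.4 and 12.9 CPM in treated libraries, against 37.7, 47.4, 43.6 and 40.4 CPM in vehicle libraries. The groups lay far apart, with a log2 fold change of -1.94 (SE 0.14, adjusted p = 2.60e-18).

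Among the TAM receptors, which bind GAS6 and protein S, AXL and MERTK rose and TYRO3 did not pass. AXL (chromosome 19, 41219203 to 41261766) had 41.7, 44.7, 45.8 and 47.6 CPM in treated libraries, against 14.2, 14.5, 15.3 and 14.6 CPM in vehicle libraries. Replicates were tight in both groups, and the rise was 3.04-fold (log2 fold change 1.60, SE 0.13, adjusted p = 1.77e-16), in a gene whose 3′ UTR holds the 8-base word of miR-449a. An unnamed antisense gene overlaps 67 exonic bases of AXL. MERTK, the TAM member best known from phagocytes (chromosome 2, 111898479 to 112029561), had 6.04, 5.63, 6.89 and 7.40 CPM in treated libraries, against 0.837, 1.04, 4.72 and 3.77 CPM in vehicle libraries. Vehicle libraries 1 and 2 were lower than 3 and 4, yet all lay under the treated libraries (2.26-fold higher, adjusted p = 0.00202). TYRO3 averaged 12.8 ± 2.99 CPM in treated and 12.2 ± 2.32 CPM in vehicle cells (adjusted p = 0.974), and it has an annotated pseudogene with which reads could be shared. The ligand genes GAS6 and PROS1 had too few counts for a test.

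The Eph receptors, the largest family, bind ephrins on neighbouring cells and steer cell positioning and contact. Of 9 class A members, 4 were in the table and 2 were tested, and of 5 class B members, all were in the table and 2 were tested. EPHA2 (chromosome 1, 16124337 to 16156087) had 59.3, 60.7, 23.4 and 81.4 CPM in treated libraries, against 25.5, 23.0, 28.3 and 31.9 CPM in vehicle libraries. Treated libraries 1, 2 and 4 lay above all vehicle libraries, and treated library 3 lay among them. The rise was called (log2 fold change 1.06, SE 0.35, adjusted p = 0.0338), but leaving out a library gave adjusted p from 8.12e-15, without treated library 3, to 0.0863, without vehicle library 2. The log2 fold change ran from 0.88 to 1.27 in these fits, and the call was lost in 7 of those 8 fits. Without the filter on low counts it was lost too (adjusted p = 0.0624). EPHB4 (chromosome 7, 100802565 to 100827521), known from the artery-vein boundary, had 52.7, 61.2, 54.7 and 50.2 CPM in treated libraries, against 33.5, 41.2, 40.2 and 47.5 CPM in vehicle libraries. That rise was small but without overlap (1.34-fold, adjusted p = 0.000472), and EPHB4 shares 69 exonic bases with SLC12A9 on the opposite strand. EPHA7 averaged 20.7 ± 0.926 CPM in treated and 23.0 ± 2.97 CPM in vehicle cells (adjusted p = 0.377). EPHB3 averaged 36.0 ± 5.30 CPM in treated and 39.2 ± 3.01 CPM in vehicle cells (adjusted p = 0.281).

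The 2 discoidin domain receptors, which are activated by collagen, moved in opposite directions. DDR2, the member typical of mesenchymal cells (chromosome 1, 162631373 to 162787400), had 340.1, 322, 356 and 329 CPM in treated libraries, against 90.8, 94.0, 107 and 95.5 CPM in vehicle libraries. All treated libraries were above all vehicle libraries (log2 fold change 1.79, SE 0.07, adjusted p = 3.33e-32), a 3.46-fold rise. DDR1, the member typical of epithelial cells (chromosome 6, 30876421 to 30900156), had 52.4, 57.7, 51.0 and 42.5 CPM in treated libraries, against 88.7, 95.02, 91.6 and 90.2 CPM in vehicle libraries. This fall was 1.78-fold with no overlap (-0.83, SE 0.09, adjusted p = 1.02e-11).

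Summed over the 40 receptors, the level was 1189, 1196, 1169.9 and 1239.5 CPM in treated libraries, against 971, 1001, 1006 and 1023 CPM in vehicle libraries. DDR2 alone made up 26.6% to 30.4% of that sum in treated libraries and 9.33% to 10.6% in vehicle libraries. Without DDR2 the sums were 814 to 910.3 CPM in treated libraries and 881 to 928 CPM in vehicle libraries, and these ranges overlap.

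**Figure D3:**
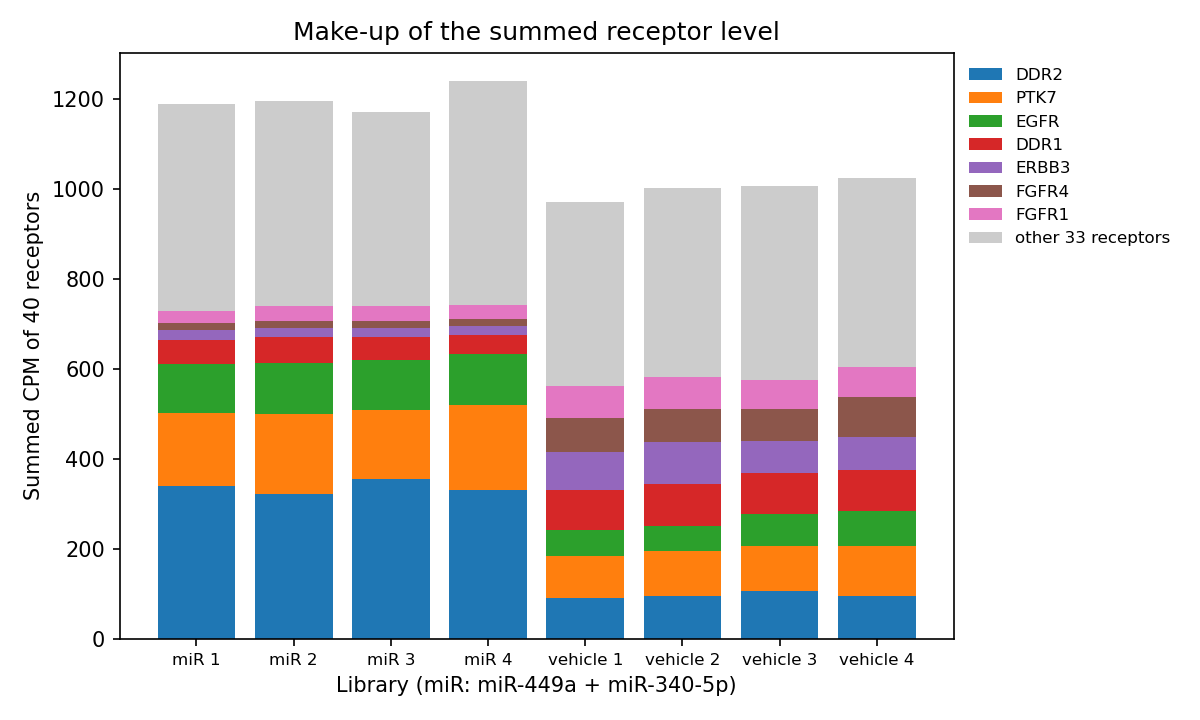
Summed CPM of the 40 receptors in each library, split into 7 receptors and the other 33, treated libraries (miR 1 to 4) left of vehicle libraries. The DDR2 segment is 322 to 356 CPM high in treated libraries and 90.8 to 107 CPM in vehicle libraries, while the segments of FGFR4, FGFR1, ERBB3 and DDR1 are smaller in treated libraries.

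Receptors of the Wnt group and of the synapse were next. PTK7, a receptor with an inactive kinase domain that acts in planar polarity (chromosome 6, 43076268 to 43161719), had 160.5, 178, 151 and 189.6 CPM in treated libraries, against 92.5, 100.5, 98.8 and 109.5 CPM in vehicle libraries. Every treated library exceeded every vehicle library (1.69-fold, adjusted p = 3.39e-13). The 2 words of miR-340-5p in PTK7 lie in the 3′ UTR of a shorter transcript and not at the annotated end of the gene. RYK, a Wnt-binding receptor (chromosome 3, 134065303 to 134250744), had 28.8, 26.6, 23.1 and 38.0 CPM in treated libraries, against 41.4, 34.7, 41.1 and 39.4 CPM in vehicle libraries. Treated library 4 lay within the vehicle range, and the fall was 1.35-fold (adjusted p = 0.00227). The pseudogene RYKP1 is also in the table and could share reads with RYK. ROR2, which binds WNT5A, averaged 2.01 ± 1.04 CPM in treated and 3.72 ± 1.53 CPM in vehicle cells and did not pass (adjusted p = 0.0703).

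MUSK, the agrin-responsive receptor of the neuromuscular junction (chromosome 9, 110668771 to 110801620), had 14.4, 12.96, 14.5 and 17.4 CPM in treated libraries, against 26.4, 27.7, 26.9 and 24.9 CPM in vehicle libraries. The groups did not overlap, and the fall was 1.81-fold (log2 fold change -0.86, SE 0.15, adjusted p = 1.20e-06). DOK7, the cytoplasmic adaptor that activates MUSK, fell as well, to 3.05 ± 1.04 CPM in treated cells, against 18.9 ± 1.96 CPM in vehicle cells (5.94-fold, adjusted p = 7.67e-15). By contrast, the co-receptor LRP4 and the ligand AGRN were called higher. LRP4 averaged 2.93 ± 0.533 CPM in treated and 1.06 ± 0.855 CPM in vehicle cells (2.97-fold, adjusted p = 0.00408). AGRN averaged 3.62 ± 1.30 CPM in treated and 1.69 ± 1.04 CPM in vehicle cells (2.14-fold, adjusted p = 0.0139). LRP4 reached the count minimum in 0 vehicle libraries and AGRN in 1.

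Among the vascular and class III receptors, FLT1 was the only one tested. FLT1, also called VEGFR1, had 69.2, 61.1, 67.8 and 69.5 CPM in treated libraries, against 71.96, 63.2, 75.0 and 54.8 CPM in vehicle libraries. The groups overlapped fully (log2 fold change 0.01, SE 0.10, adjusted p = 0.905), and FLT1 has an annotated pseudogene. The 4 listed endothelial markers in the table had too few counts for a test. VWF and PECAM1 averaged 0.365 and 0.0870 CPM in treated cells, against 0 and 0.359 CPM in vehicle cells. ESAM averaged 0.167 and 0.126 CPM in treated and vehicle cells, and ROBO4 1.04 and 0.0647 CPM. The treated libraries of ROBO4, at 0.355 to 2.25 CPM, all lay above its vehicle libraries, at 0 to 0.259 CPM. Treated and vehicle sums of counts were 26 and 12 for PDGFRB, 4 and 11 for FLT4, 5 and 6 for TIE1 and 6 and 28 for TEK, the angiopoietin receptor.

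LTK, a relative of ALK (chromosome 15, 41503638 to 41513887), had 10.5, 11.6, 14.5 and 11.3 CPM in treated libraries, against 2.93, 2.59, 2.47 and 2.76 CPM in vehicle libraries. This 4.39-fold rise was the largest among the tested receptors (log2 fold change 2.14, SE 0.27, adjusted p = 4.01e-10), with vehicle libraries near the count minimum of 2.43 CPM. That minimum is on library sizes without the TMM scaling used for the CPM given here, and on that scale only 2 vehicle libraries reached it. LMTK2, a membrane-bound lemur kinase, averaged 9.17 ± 2.19 CPM in treated and 7.97 ± 1.78 CPM in vehicle cells (adjusted p = 0.393).

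Another 16 receptors were in the table with too few counts for the test. Fitted without the filter on low counts, 6 of the 16 passed: FGFR3, ALK and STYK1 were higher, and FGFR2, TEK and EPHA3 were lower. In that fit 39.7% of the 22808 genes passed, but this share covers genes of all levels, most of the calls being in genes with many counts. The share among genes with few counts alone was not worked out, so 39.7% is not a like background for the 16. STYK1, a kinase-like receptor, had 35, 31, 15 and 6 counts in treated libraries, against 1, 5, 7 and 1 in vehicle libraries (adjusted p = 6.87e-07 in that fit). ALK, known as an oncogene of lymphoma and neuroblastoma, had 24, 18, 7 and 4 counts in treated libraries, against 2, 6, 7 and 0 in vehicle libraries (adjusted p = 0.00842). EPHA3 had 7, 4, 2 and 1 counts in treated libraries, against 4, 17, 8 and 11 in vehicle libraries (adjusted p = 0.00526). TEK had 1, 0, 4 and 1 counts in treated libraries, against 5, 2, 12 and 9 in vehicle libraries (adjusted p = 0.00591). These calls rest on few reads. Treated and vehicle sums were 6 and 6 for EPHA4, 5 and 7 for EPHB1, 4 and 12 for EPHB2, 10 and 12 for EPHB6, 2 and 3 for RET, 6 and 0 for ROR1 and 5 and 2 for LMTK3. ERBB4, INSRR, PDGFRA, CSF1R, KIT, FLT3, KDR, NTRK2, NTRK3, MST1R, EPHA1, EPHA5, EPHA6, EPHA8, EPHA10 and ROS1 were not analysed here.

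Levels of different receptors were compared as CPM per kilobase of annotated exon. In treated cells DDR2 stood first at 31.4 ± 1.36 CPM per kilobase, then PTK7 at 18.8 ± 1.89, EPHA2 at 13.5 ± 5.79, EGFR at 8.96 ± 0.105, AXL at 8.72 ± 0.481, EPHB4 at 8.505 ± 0.733 and EPHB3 at 7.94 ± 1.17 (SD, n = 4 each). EPHA2 spread from 5.63 to 19.6 and overlapped its neighbours, and the ranges of EGFR, AXL, EPHB4 and EPHB3 overlapped one another. In vehicle cells FGFR4 stood first at 16.1 ± 1.63 CPM per kilobase, then PTK7 at 11.1 ± 0.780, DDR1 at 10.02 ± 0.297, DDR2 at 9.01 ± 0.644, ERBB3 at 8.90 ± 1.12 and EPHB3 at 8.65 ± 0.664. The range of FGFR4 lay above all others there, while PTK7 and DDR1 overlapped, as did DDR1, DDR2 and ERBB3. In the order of the 40 receptors by level per kilobase, FGFR4 was number 13 in treated and number 1 in vehicle cells, ERBB3 number 17 and number 5, and MET number 19 and number 10. AXL was number 5 in treated and number 17 in vehicle cells. With the longest coding transcript as the length, PTK7 came before DDR2 in treated cells at 39.7 against 33.15 CPM per kilobase, and AXL was number 8 there. FGFR4 then averaged 24.97 and PTK7 23.48 CPM per kilobase in vehicle cells, with ranges that overlapped (23.16 to 28.6 and 21.6 to 25.6), and MET was number 14 there.

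By vehicle level, 18 receptors lay at 1 CPM per kilobase or more and all were tested: 6 rose, 7 fell and 5 did not pass. The 3 at 10 or more were FGFR4, PTK7 and DDR1, of which 1 rose and 2 fell, where 25.1% of all tested genes in that band rose and 52.9% fell. This count depends on how the band is set: on the mean of all 8 libraries 3 rose and 0 fell, and with the longest coding transcript as the length 1 rose and 5 fell. Between 0.1 and 1 there were 13 receptors, of which 6 were tested, and 3 of these rose (INSR, MERTK and LTK) and none fell. Of all tested genes in that band, 50.6% rose and 9.21% fell. The vehicle level enters both the band and the fold change, and LTK and MERTK passed the filter through the treated libraries, so no relation is read from these counts. Below 0.1 lay 9 receptors, none of them tested.

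Receptors with a seed match moved in both directions. Of 5 tested receptors with a miR-449a word, 2 fell (MET and FGFR1), 2 rose (AXL and INSR) and FLT1 did not pass, with a median log2 fold change of 0.01. Among all 1456 tested genes with that word alone, 28% rose, 42% fell and the median was -0.15. Of 5 tested receptors with a miR-340-5p word, 4 rose (DDR2, PTK7, EGFR and MERTK), none fell, and EPHA7 did not pass, with a median of 0.75. Among all 1674 tested genes with that word alone, 37.2% rose, 32.8% fell and the median was 0.08. Neither word was held by 14 receptors, of which 3 rose and 5 fell, including FGFR4 and ERBB3. Among all 7205 tested genes with neither word, 36.3% rose and 32.1% fell. The falls of ERBB3 and of MET, which holds miR-449a words, were of nearly the same size (-1.95 and -1.94), and their order turned in some of the alternative fits. The part of the words in the fall of MET was not tested. In the 3′ UTR of the transcript with the longest coding sequence, 3 tested receptors held a miR-449a word (AXL rose, MET and FGFR1 fell), with a median of -1.12, and 4 held a miR-340-5p word, of which 3 rose and none fell. A word of either kind was held by 41.7% of tested receptors and 33.4% of the 10811 tested genes with a 3′ UTR. Receptors with a word had a median 3′ UTR of 3707 bases, and those with neither 949 bases.

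**Figure D4:**
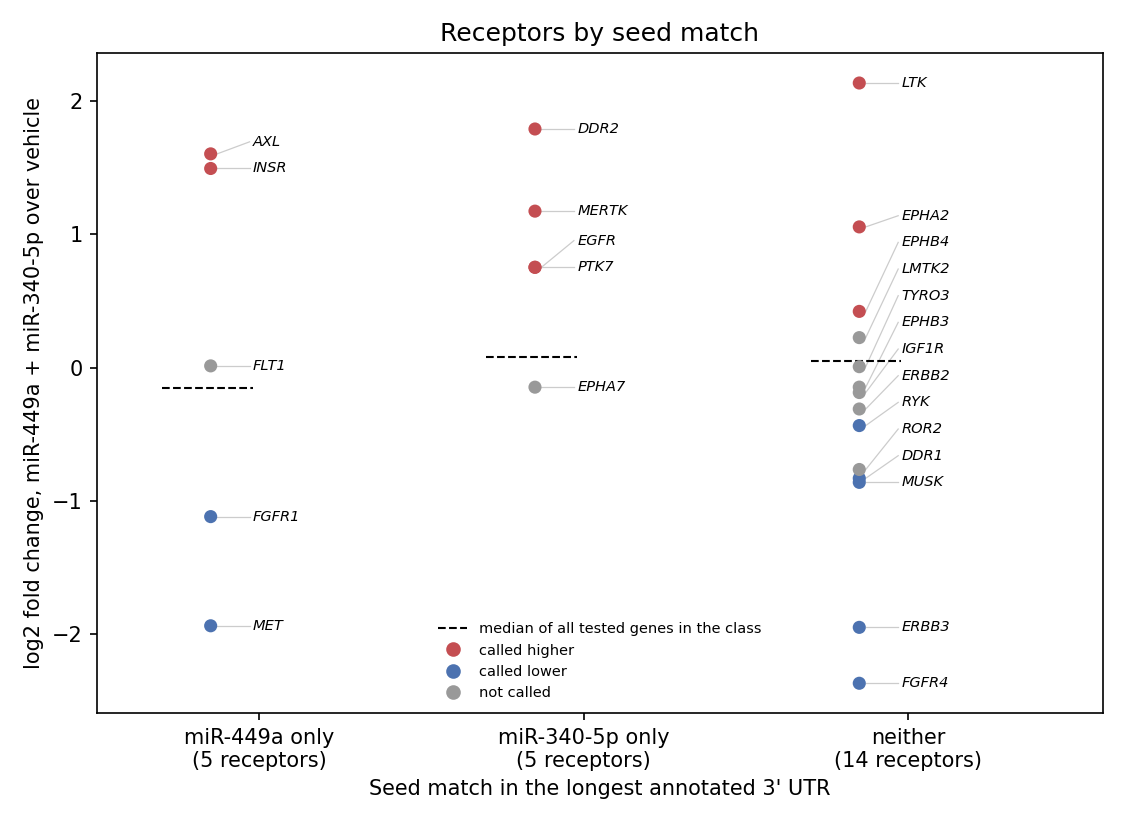
Log2 fold change of the 24 tested receptors by the seed match in the longest annotated 3′ UTR, with dashed lines at the median of all tested genes in each class (-0.15, 0.08 and 0.05). The miR-449a class holds both MET and AXL at opposite ends, and the miR-340-5p class holds 4 receptors that rose and none that fell.

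Ligands and signalling partners were counted over 4 lists. Of 25 tested receptor ligands, 12 rose and 6 fell, with a median log2 fold change of 0.36. The higher ones were HBEGF, PDGFC, KITLG, VEGFA, FGF2, BDNF, ANGPT2, EFNA3, EFNA4, EFNB3, WNT5B and AGRN, and the lower ones NRG1, VEGFB, PGF, FGF9, EFNA5 and EFNB1. ANGPT2, a ligand of TEK that can block it, averaged 268 ± 27.3 CPM in treated and 30.7 ± 6.42 CPM in vehicle cells (8.43-fold higher, adjusted p = 1.02e-31), while TEK itself had 6 and 28 counts in all. HBEGF, a ligand of EGFR, averaged 34.8 ± 4.85 CPM in treated and 4.61 ± 0.422 CPM in vehicle cells (7.40-fold higher, adjusted p = 2.72e-21). EFNA5, an ephrin that binds class A Eph receptors, fell 2.92-fold, to 26.1 ± 1.43 CPM in treated cells, against 77.0 ± 7.43 CPM in vehicle cells. VEGFB, a ligand of FLT1, fell 2.92-fold as well, to 17.8 ± 0.886 CPM in treated cells, against 52.4 ± 4.61 CPM in vehicle cells.

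Of 12 tested co-receptors, 5 rose and 6 fell (median -0.02). The heparan sulphate proteoglycan genes GPC1 and SDC3, whose products present FGFs and other ligands, fell 6.71-fold and 5.49-fold. GPC1 averaged 16.6 ± 1.97 CPM in treated and 111 ± 8.78 CPM in vehicle cells. NRP1, a co-receptor of VEGF receptors, had 260 counts in treated and 1 count in vehicle libraries, a depth-scaled ratio of 218 (95% counting interval 38.8 to 8650). Its relative NRP2 rose 3.20-fold. Of 31 tested proximal adaptors and effectors, 19 rose and 5 fell (median 0.32). IRS2, the adaptor of insulin-type receptors, averaged 83.7 ± 5.79 CPM in treated and 15.8 ± 2.70 CPM in vehicle cells (5.25-fold higher, adjusted p = 2.16e-26). SHC2 rose 4.26-fold and DOK1, an adaptor that damps RAS signalling, 2.19-fold. Of 25 tested attenuators and sheddases, 11 rose and 5 fell (median 0.28). ERRFI1, an intracellular inhibitor of EGFR-family kinases, averaged 59.4 ± 1.53 CPM in treated and 12.8 ± 1.47 CPM in vehicle cells (4.62-fold higher, adjusted p = 6.03e-23). PTPRF, a receptor phosphatase, rose 2.75-fold, ADAM17, the protease that sheds EGFR ligands, rose 1.88-fold, and SH3KBP1, a CBL-binding endocytic adaptor, fell 1.90-fold. Some called genes of these lists, like LTK and MERTK among the receptors, lay under the count minimum in libraries of their lower group. This held for 3 higher and 2 lower ligands (EFNB3, WNT5B and AGRN, and FGF9 and EFNB1), 2 higher co-receptors and 1 lower (NRP1 and LRP4, and SDC1), 2 higher and 2 lower adaptors (SHC3 and DOK4, and SH2B2 and DOK7) and 0 attenuators, so the counts and medians describe the tested genes and not the whole lists. All of these counts stand against the 33.4% of tested genes that rose and the 34% that fell.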

How the data were processed

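Per the labels' protocols, a TruSeq Stranded mRNA kit and a HiSeq4000 were used. The deposited values are whole-number counts per gene symbol, and the submitters' processing notes list the build GRCh38 and, without roles, DESeq2, HTSeq 0.5.3p3, SAMtools 0.1.19.24 and TopHat2 2.0.13. How strand was set in counting, and with which annotation, is not given in the sources used here. Columns were matched to samples by the library code in the labels.

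Genes were kept by filterByExpr (minimum count 10, total 15), scaled by TMM and tested over all 12366 genes with edgeR 4.0.16 in R 4.3.3 (quasi-likelihood, group as the only term, two-sided, Benjamini-Hochberg adjustment, threshold 0.05). CPM use effective library sizes, and SE is the size of the log2 fold change over the square root of F. Replicate pairs differed by more than sampling noise (chi-square per gene 2.21 to 5.89 for genes of at least 20 counts), so none was merged. On simulated treated and vehicle counts of 12363 genes, the same test found 46 of the 67 genes set to a 1.5-fold change. It found 66 of the 67 set to 2-fold and 65 of the 66 set to 4-fold, and also called 10 of the 12163 genes left as they were. The changed genes were drawn only from those with higher counts, so this recovery does not cover genes as low as ROR2, MERTK and LTK. They were also a small share of the genes, where 67.3% of tested genes were called in the data.

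Gene lengths, coordinates and 3′ UTRs of at least 50 bases come from GENCODE 29 (GRCh38), to which 17610 symbols matched by name and 523 by another symbol, while 4675 did not. The members and lists were chosen with earlier results of these data known. Values per library are given for called receptors averaging at least 1 CPM, and for up to 4 called genes per ligand or partner list with the smallest adjusted p, values or folds are given. For FLT1, for LRP4 and AGRN beside MUSK, and for the few-count receptors named with their counts, the choice was made after their values were seen. Alternatives were DESeq2 1.42.0, limma-voom (limma 3.58.1), other scalings, filters and a stricter threshold, removal of mitochondrially encoded genes, a fit with the replicate number as a block, leaving out each library, other 3′ UTRs and 8-base sites. A second gene length and the 3′ UTR of the longest coding sequence were added after the data were seen.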

Additional observations from a re-analysis of the deposited data

How the results depend on the processing

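Of 16 called receptors, 15 kept direction and call in all 18 alternative fits, the exception being EPHA2, described above. Receptors called higher numbered 8 to 11 and lower 7 to 10 over the 10 alternatives of tool, scaling, filter, threshold, block and composition, with 11 and 10 when no gene was filtered out, and 8 to 10 and 7 to 8 with each library left out. The counts of ligands, co-receptors, adaptors and attenuators stayed within 1.5 times. When counts were scaled by library size alone, the median over all tested genes became 0.14 (log2), the receptors' median became 0.07, and the same numbers of receptors were called (9 higher, 7 lower). Deviations of same-numbered libraries were only weakly correlated (from 0.0135 to 0.0555), and such small values cannot settle whether the numbers pair the libraries. Each correlated best with its own number except vehicle library 4, which correlated 0.0135 with treated library 4 and 0.015 with treated library 2. With a replicate block, 4102 genes were called higher and 4171 lower, with 9 and 7 receptors. The uncalled TYRO3 and FLT1 changed sign: TYRO3 was -0.0423 with limma-voom and ran from -0.12 to 0.14 with a library left out, and FLT1 ran from -0.0646 to 0.085. ROR2 passed as lower without treated replicate 2 (-1.09, adjusted p = 0.0293), and the cause was not tested. With 8-base sites, 1 receptor with a site rose and 0 fell, since the longer word leaves AXL alone, and with the 3′ UTR of the longest coding sequence 4 rose and 2 fell (against 6 and 2). Strata on the mean of all 8 libraries gave 8 higher and 7 lower receptors at 1 CPM per kilobase or more, and the second gene length 7 and 7. At 10 or more, where 1 rose and 2 fell, the counts became 3 and 0 on the mean of all 8 libraries and 1 and 5 with the second gene length, since the bands then hold other receptors. Depth limits the 16 receptors with few counts most.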
